A study of Mus musculus with 15 samples.

Results

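Fanconi anemia and DNA repair genes were examined by bulk RNA sequencing of hematopoietic stem cells (HSCs), which were isolated by flow sorting from the bone marrow of mice. The set held 36 genes of the 20696 in the expression table, chosen by gene symbol, and all 36 were found. They were divided by textbook role into 21 replication-linked genes, whose products act mainly at replication forks or on sister chromatids, and 15 constitutive genes, whose products act in all phases of the cell cycle. This division was made with earlier results of these data known. The 3 groups held 5 libraries each: young controls (3 months), aged controls (18 months) and aged mice with a Thbs1 knockout (also 18 months). Thbs1 encodes thrombospondin 1, a secreted matrix glycoprotein. The sources used here do not give the strain, the control genotype or how the Thbs1 allele was disrupted. Whether each library is from its own animal is not stated, and p-values therefore rest on a spread between libraries that may be technical in part.

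In the Fanconi anemia pathway, a core complex places ubiquitin on FANCD2 and FANCI when a replication fork meets an interstrand crosslink, and homologous recombination then restores the fork. Loss of this pathway causes bone marrow failure through exhaustion of HSCs. Quiescent HSCs have no sister chromatid to copy from and rely more on end joining, in which the Ku proteins and DNA-PKcs hold broken ends for ligation, while excision pathways remove damaged bases and bulky adducts in resting and in dividing cells.

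Levels are given as FPKM, fragments divided by the length of all annotated exons of a gene and by library size. Differences are given as log2(FPKM + 1), a scale on which changes of low genes appear smaller than they are. A gene was tested when its mean over all 15 libraries was at least 1 FPKM, which left 11345 genes, and was called when its limma adjusted p was under 0.05. Between 16.65e6 and 28.62e6 reads fell in genes per library, as recovered from the steps between FPKM values. The RNA of the targeted gene was not lower under the knockout label: Thbs1 reached 1.69 to 17.89 FPKM in knockout libraries, 0.01 to 8.75 among aged and 0.70 to 13.38 among young controls. The former are therefore called labelled knockouts throughout. The table carries a sample title and a library name per column, and the public sample descriptions pair these names with other titles for 10 of the 15 columns, each time in another group. Columns were grouped by title. Under the other pairing the aged to young differences turned: the class medians were 0.107 (replication-linked) and 0.244 (constitutive) in place of -0.276 and -0.284, Lig1, Xrcc5, Msh6, Parp1 and Fanci were higher in aged controls, and 0 of all tested genes were called in place of 501. Every direction given below holds for the grouping by title, and which pairing is right was not tested. The library names put 2 male and 3 female libraries among the young controls, 3 and 2 among the aged controls, and 2 and 3 among the labelled knockouts. By this sex, Thbs1 ran over 0.01 to 2.53 FPKM in male and 2.42 to 17.89 in female libraries. The part of sex in the Thbs1 values was not tested. The HSC markers Procr (43.3 to 133.2 FPKM) and Hlf (25.3 to 44.8) were present in every library. Of the markers of other cells, Ebf1, Cd3d, Cdh5, Cxcl12 and Col1a1, which define B, T, endothelial and stromal cells, reached at most 0.34 FPKM. Others of the same lists were present in every library: Cd79b (B cell) at 29.2 to 63.8, Nkg7 (T and NK cell) at 21.9 to 117.1 and Pecam1 (endothelial) at 5.62 to 12.3. The erythroid genes Hbb-bs and Klf1 ran over 2.24 to 46.1 and 3.64 to 37.9, the neutrophil genes S100a8 and S100a9 over 1.45 to 19.3 and 1.08 to 20.1, and the platelet gene Pf4 over 51.7 to 1579. The part of such markers in the repair gene values was not tested. In bulk samples, fewer cells of a type and less RNA per cell cannot be told apart.

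Promoters of many replication genes carry a binding motif of E2F factors, which switch on genes for S phase. The sites are shown because 3 members with one, Msh6, Lig1 and Xrcc6, had an unadjusted limma p under 0.05 between aged and young controls. No member was called, and 9 members had such a p. Of those 9, Fanci, Palb2, Parp1, Mre11a and Xrcc5 had no match, and Nbn had no promoter window. Whether the motif bears on any difference was not tested. The motif was searched as TTTCCCGC, TTTCGCGC, TTTGCCGC or TTTGGCGC on both strands, from 250 bases before to 50 after each RefSeq start (GRCm38.p6). Promoter windows were matched for 29 of the 36 members. The motif was found in 5 of 19 replication-linked members (26.32%) and in 1 of 10 constitutive members (10%), against 4.94% of the 8462 tested genes with a window and 2.6% of all 27025 genes with a window. The 30 bases around each match follow in the direction of the gene, with the motif in capitals.
Msh6, chr17:87975054-87975083, plus strand: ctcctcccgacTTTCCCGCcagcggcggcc
Lig1, chr7:13278841-13278870, plus strand: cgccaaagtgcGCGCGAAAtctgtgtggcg
Fancg, chr4:43010335-43010364, minus strand: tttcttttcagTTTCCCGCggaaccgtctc
Brca2, chr5:150522442-150522471, plus strand: tttaggccacaGCGGGAAAcagacacacac
Rad51c, chr11:87404941-87404970, minus strand: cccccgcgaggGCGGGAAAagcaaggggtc
Rad51c, second start, chr11:87404477-87404506, minus strand: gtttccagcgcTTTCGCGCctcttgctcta
Xrcc6, chr15:82016312-82016341, plus strand: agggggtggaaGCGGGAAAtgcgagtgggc
The motif began 16 bases into the transcript in Msh6 and 27 bases into it in Lig1, and 46 bases before the start in Xrcc6. It read in the direction of the gene in Msh6 and Fancg and on the opposite strand in Lig1, Brca2 and Xrcc6. The cell cycle homology region TTTGAA, found in 13.99% of tested genes, was in 0 of the 29 member windows. CCAAT was in 12 of 19 replication-linked and 7 of 10 constitutive members, against 42.94% of tested genes. A match describes these letters only, and no match says only that they are not in this window.

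Members spanned a wide range of levels. Parp1, which marks single-strand breaks with poly(ADP-ribose), had the highest mean over the 15 libraries, 46.2 FPKM. Lig1, the ligase that seals Okazaki fragments, followed at 31.4, with the Ku70 gene Xrcc6 at 31.2 and the mismatch repair gene Msh6 at 26.3. Xpc, the damage sensor of nucleotide excision repair, averaged 20.9 and the Ku80 gene Xrcc5 17.3. At the other end stood Atr, the kinase of stalled forks, at 0.175 FPKM, and Lig4, the ligase of end joining, at 0.077. The median member level was 1.93 FPKM in the replication-linked class and 7.70 in the constitutive class. Level went with exonic length, which merges all annotated exons of a gene and is also the divisor of FPKM. Spearman's rho of this length and mean FPKM was -0.63 across the 36 members and -0.17 across the 11345 tested genes, which are points of the same libraries. The part of the divisor in either value was not tested. The first value includes the 12 members under 1 FPKM and the second leaves such genes out, so they are not like for like.

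**Figure D1:**
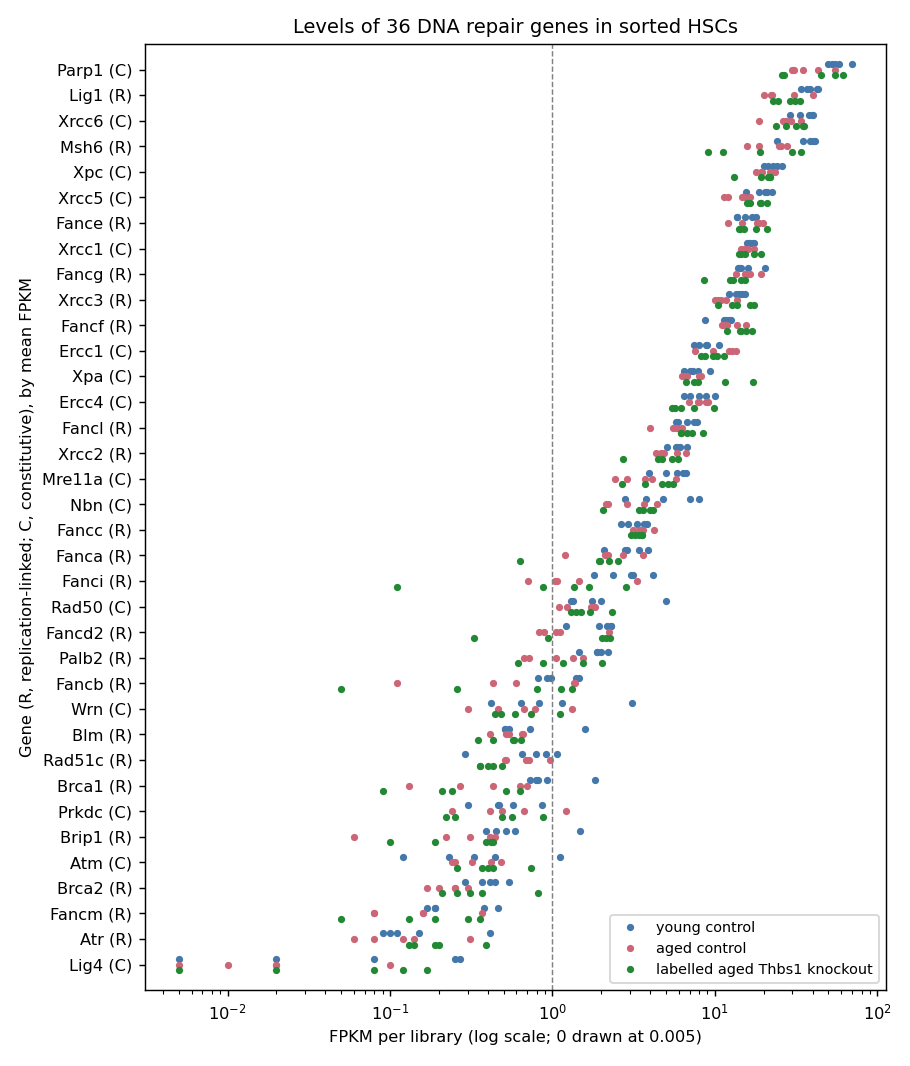
FPKM of each of the 36 repair genes in each of 15 libraries, on a log axis, with genes ordered by mean level (R, replication-linked; C, constitutive) and 0 drawn at 0.005. The dashed line marks 1 FPKM: 24 genes have a mean at or above it, led by Parp1, Lig1, Xrcc6 and Msh6, and 12 lie below it, down to Lig4.

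Within the Fanconi core complex, subunit genes differed widely in level. Fance averaged 16.2 FPKM, Fancg 14.9, Fancf 12.9 and Fancl, the ubiquitin ligase, 6.39, whereas Fancc averaged 3.41, Fanca 2.41, Fancb 0.867 and the translocase gene Fancm 0.218. Both substrates of the complex were low, Fanci at 1.93 and Fancd2 at 1.58. Recombination genes ran from Xrcc3 at 13.1 and Xrcc2 at 5.26 down to Palb2 at 1.40, Rad51c at 0.610, Brca1 at 0.597, Brip1 at 0.426 and Brca2 at 0.346. Of the end joining genes, both Ku genes were high while Prkdc, which encodes DNA-PKcs, averaged 0.539. Of the MRN complex, which senses double-strand breaks, Mre11a averaged 4.56, Nbn 3.92 and Rad50 1.81, while the kinase Atm stood at 0.409. Excision repair genes were all tested: Xrcc1, a scaffold of single-strand break repair, averaged 16.1, the nuclease genes Ercc1 and Ercc4 9.85 and 7.70, and Xpa 8.28. Xrcc1 varied least of the 36, from 14.07 to 19.31 FPKM (1.37-fold).

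The 12 members under the filter were Fancb, Fancm, Brca1, Brca2, Brip1, Rad51c, Blm, Atr, Wrn, Prkdc, Atm and Lig4. Of these, 9 were highest in replicate 1 among the young controls. That library was highest of its group for 5 of the 24 tested members and for 18.1% of all tested genes. Both shares leave out genes under the filter, for which no share over all genes was computed. For 1418 genes of 0.2 to 2 FPKM and more than 6000 exonic bases, each value was set against the gene's median in its own group. The mean deviation was 0.285 (log2) in that library and -0.086 to 0.138 in the other 14. Among the 10 members within that range of level and length, it was 0.448. The part of this library's coverage in the values of long, low genes was not tested.

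Between aged and young controls, the question was how repair gene expression in HSCs differs with age. No member was called (limma, 0 of 24 tested, against 4.42% of all tested genes). When all 20696 genes were tested without a filter, none of the 36 was called either (background 2.23%), and voom on the recovered reads called 0 of 24. At an unadjusted p under 0.05, 9 members were lower in aged controls and 0 higher, against 9.98% of all tested genes in each direction. Those 9 were Fanci, Msh6, Lig1 and Palb2 of the replication-linked class and Nbn, Parp1, Mre11a, Xrcc5 and Xrcc6 of the constitutive class. All 9 were higher in aged controls when columns were grouped by the public descriptions. Of the 24 tested members, 18 were lower in aged controls, against 52.2% of all tested genes. Members and lists were described by counts and medians, and no test compared them with other genes.

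Xrcc5 (ENSMUSG00000026187, GRCm38 chromosome 1, 72307421 to 72394952) had the smallest adjusted p. It lay at 18.67, 15.48, 22.58, 21.01 and 20.45 FPKM in young controls 1 to 5, at 11.34, 12.11, 14.77, 15.41 and 16.42 in aged controls, and at 16.51, 19.02, 19.15, 20.85 and 15.79 in labelled knockouts. Young and aged controls overlapped only through young replicate 2, which lay below aged replicate 5. The aged mean, 14.0 ± 2.18 (SD, n = 5), was below the young mean of 19.6 ± 2.71, a log2 difference of -0.46 (SE 0.14, limma adjusted p = 0.0642). The gene was called when young replicate 2 was left out (-0.54, limma adjusted p = 0.0366), when aged replicate 5 was (-0.52, 0.0317), and when labelled knockout replicate 5 was (-0.46, 0.041). In the other 12 of the 15 fits without 1 library it was not called, and the adjusted p reached 0.197 (limma). Leaving out a labelled knockout, which is in neither group compared here, alters only the pooled spread.

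Xrcc6 (ENSMUSG00000022471, chromosome 15, 81987835 to 82040085), the partner of Xrcc5 in the Ku heterodimer, lay at 33.37, 28.88, 39.54, 40.07 and 37.79 FPKM in young controls. It lay at 27.29, 18.82, 26.39, 29.25 and 33.77 in aged controls and at 31.45, 23.71, 34.63, 35.31 and 27.52 in labelled knockouts. All 3 groups overlapped, with the lowest value in aged replicate 2. The aged to young difference was -0.41 (SE 0.16, limma adjusted p = 0.157).

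Lig1 (ENSMUSG00000056394, chromosome 7, 13277283 to 13311433) is described because its adjusted p was the next smallest, a choice made after its values were seen. Its FPKM was 38.73, 36.70, 34.02, 43.28 and 42.34 in young controls, 22.60, 22.01, 30.71, 20.07 and 40.18 in aged controls, and 33.32, 24.52, 29.01, 31.01 and 22.80 in labelled knockouts. Of the aged controls, only replicate 5 reached the young range. The means were 39.0 ± 3.86 in young and 27.1 ± 8.36 in aged controls (SD, n = 5), a difference of -0.55 (SE 0.17, limma adjusted p = 0.0742). Without aged replicate 5 the difference was -0.70 and Lig1 was called (limma adjusted p = 0.00669). It was not called in the other 14 fits without 1 library, where the difference was as small as -0.46 and the limma adjusted p reached 0.21.

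Fanci (ENSMUSG00000039187, chromosome 7, 79391929 to 79450264) had the largest aged to young difference of the tested members. Values were 4.15, 1.81, 3.05, 2.35 and 3.14 FPKM in young controls, 1.45, 1.06, 0.71, 1.04 and 3.30 in aged controls, and 1.68, 0.87, 1.36, 2.83 and 0.11 in labelled knockouts. Aged replicates 1 to 4 lay below every young library and replicate 5 lay above all but one of them. The difference was -0.68 (SE 0.29, limma adjusted p = 0.199). Fancd2 (ENSMUSG00000034023, chromosome 6, 113531682 to 113597017), its partner, showed the same aged library apart: 1.94, 2.17, 2.30, 1.22 and 2.29 in young controls, 1.05, 0.89, 1.11, 0.83 and 2.24 in aged controls, and 2.03, 0.94, 2.15, 2.27 and 0.33 in labelled knockouts. Its difference was -0.44 (SE 0.24, limma adjusted p = 0.299).

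Msh6 (ENSMUSG00000005370, chromosome 17, 87975062 to 87990892), a mismatch recognition factor, lay at 41.13, 24.28, 38.46, 40.09 and 34.78 FPKM in young controls. It lay at 25.38, 15.73, 18.70, 24.90 and 27.71 in aged controls and at 18.98, 9.12, 29.78, 33.70 and 11.22 in labelled knockouts. Young replicate 2 alone fell within the aged range, and labelled knockouts 2 and 5 were the lowest of all 15. Labelled knockouts 2 and 5 also had the highest rRNA shares of reads, 2.97% and 1.16%. The part of this in the Msh6 values was not tested. The aged to young difference was -0.65 (SE 0.28, limma adjusted p = 0.21).

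Parp1 (ENSMUSG00000026496, chromosome 1, 180568924 to 180601254) measured 52.81, 49.40, 55.01, 58.30 and 69.97 FPKM in young controls, 34.77, 29.65, 30.60, 43.12 and 54.63 in aged controls, and 45.05, 26.75, 54.82, 61.89 and 25.79 in labelled knockouts. Aged replicates 1 to 4 lay below every young library and replicate 5 did not. The means were 57.1 ± 7.89 and 38.6 ± 10.4 (SD, n = 5), a difference of -0.58 (SE 0.23, limma adjusted p = 0.165). Nbn (ENSMUSG00000028224, chromosome 4, 15957925 to 15992589), the adaptor of the MRN complex, measured 7.94, 2.80, 7.0, 3.78 and 4.76 in young controls, 2.19, 2.14, 2.87, 3.64 and 4.43 in aged controls, and 2.06, 4.15, 3.59, 3.41 and 3.99 in labelled knockouts. Young replicates 1 and 3 stood well above the others, and young replicates 2 and 4 lay within the aged range. The difference was -0.59 (SE 0.23, limma adjusted p = 0.172).

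Mre11a (log2 difference -0.48, limma adjusted p = 0.194), the nuclease of the MRN complex, and Palb2 (-0.50, 0.133), which links BRCA1 to BRCA2, had levels of 3.77 ± 1.30 and 1.06 ± 0.378 FPKM in aged controls, against 5.55 ± 1.09 and 1.88 ± 0.267 in young controls (SD, n = 5). Fanca (ENSMUSG00000032815, chromosome 8, 123268300 to 123318576), a core subunit, lay at 2.86, 3.43, 2.08, 2.81 and 3.89 in young controls, 2.21, 2.10, 2.71, 1.19 and 3.60 in aged controls, and 1.96, 1.94, 2.23, 2.54 and 0.63 in labelled knockouts. The young and aged ranges overlapped broadly, and the difference was -0.28 (limma adjusted p = 0.472), which became -0.14 without aged replicate 4 and -0.40 without aged replicate 5. The 6 tested members that were not lower in aged controls were Fancc, Fance, Fancf, Fancg, Ercc1 and Ercc4. The largest of these differences was that of Ercc1, which with Ercc4 forms the nuclease that cuts beside bulky lesions and crosslinks: its mean was 11.1 ± 2.44 FPKM in aged and 8.74 ± 1.23 in young controls (limma adjusted p = 0.285).

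**Figure D2:**
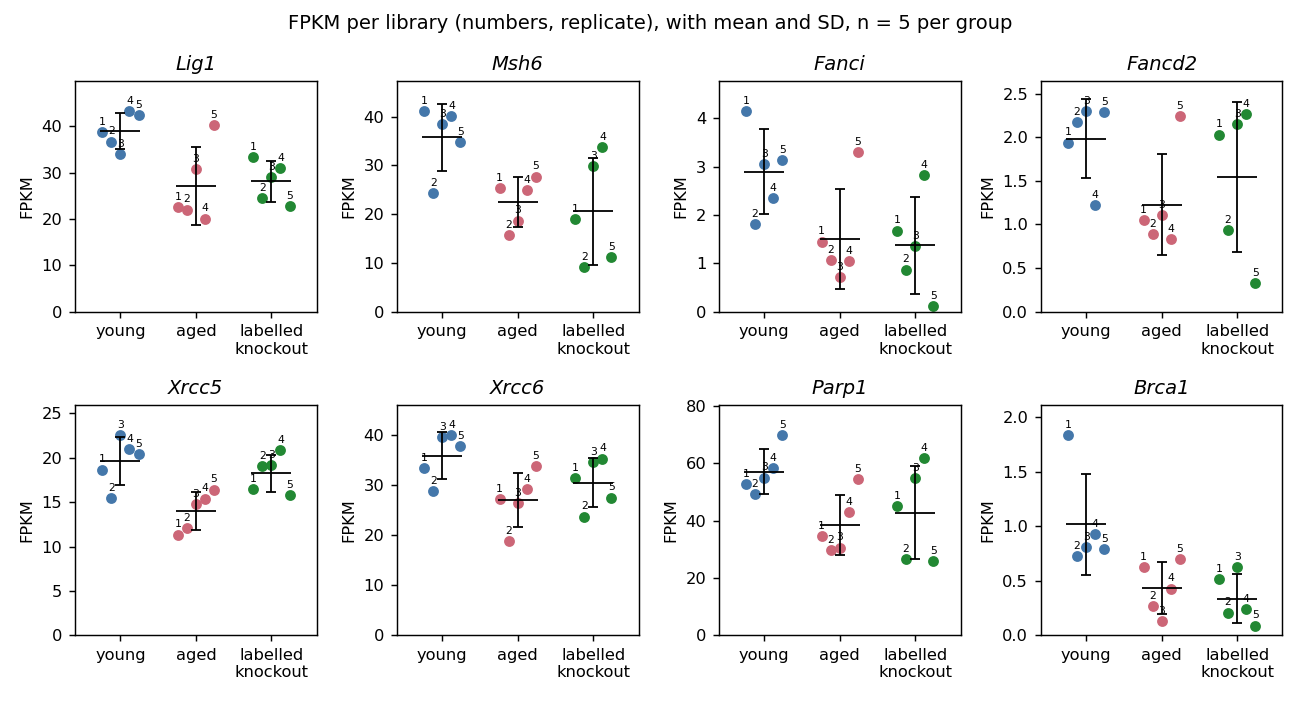
FPKM of 8 repair genes in each library (points, numbered by replicate), with the mean and SD of each group of 5 (bars). For Lig1, Fanci, Fancd2 and Parp1, aged replicate 5 stands above the other 4 aged controls, and labelled knockout replicate 5 is the lowest point for Fanci, Fancd2, Parp1 and Brca1.

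Brca1, Brca2, Atm and Prkdc, all under the filter, are central to double-strand break repair. The filter is on FPKM and not on reads: Atm had 27 to 213 and Prkdc 72 to 277 reads per library, and the tested Fanci 16 to 505. Brca1 (ENSMUSG00000017146, chromosome 11, 101488764 to 101551955), the scaffold that starts homologous recombination, lay at 1.84, 0.73, 0.81, 0.93 and 0.79 FPKM in young controls (151 to 291 reads). It lay at 0.63, 0.27, 0.13, 0.43 and 0.70 in aged controls (19 to 139 reads) and at 0.52, 0.21, 0.63, 0.24 and 0.09 in labelled knockouts (19 to 105 reads). Every aged control and every labelled knockout lay below every young control. Brca1 was the only member of 36 with non-overlapping groups between aged and young controls, against 1.91% of all 20696 genes that were lower without overlap. In the fit without a filter its limma adjusted p was 0.152.

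Brca2 (ENSMUSG00000041147, chromosome 5, 150522630 to 150570329), a mediator of homologous recombination, lay at 0.54, 0.37, 0.41, 0.29 and 0.44 FPKM in young controls, 0.30, 0.25, 0.25, 0.20 and 0.17 in aged controls, and 0.37, 0.82, 0.31, 0.26 and 0.21 in labelled knockouts. Aged replicates 2 to 5 lay below every young control, aged replicate 1 lay within the young range, and labelled knockout 2 was the highest of all. Atm (ENSMUSG00000034218, chromosome 9, 53439149 to 53536740), the kinase of double-strand breaks, lay at 1.11, 0.44, 0.12, 0.23 and 0.33 in young controls, 0.48, 0.32, 0.24, 0.25 and 0.42 in aged controls, and 0.37, 0.74, 0.43, 0.26 and 0.40 in labelled knockouts. Prkdc (ENSMUSG00000022672, chromosome 16, 15637866 to 15842235) lay at 0.86, 0.57, 0.46, 0.47 and 0.30, at 0.41, 0.67, 1.22, 0.24 and 0.49, and at 0.56, 0.87, 0.49, 0.22 and 0.25 in the same order of groups. For Atm and Prkdc all 3 groups overlapped. The other 8 genes under the filter had group means between 0.030 FPKM (Lig4, aged controls) and 1.22 FPKM (Wrn, young controls), at 0 to 434 reads per library.

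Both classes had similar medians in this comparison. The median log2 difference was -0.276 over 13 tested replication-linked members and -0.284 over 11 constitutive members, against -0.019 over all tested genes. Lower in aged controls were 9 of 13 and 9 of 11. Genes of proliferation moved in the same direction: all 21 tested of 24 (Mcm2 to Mcm7, cyclins, ribonucleotide reductase and mitotic genes) were lower, with a median of -0.579, and 2 fell, Cdk1 among them. Cdk1, the kinase that drives mitosis, fell from 25.1 ± 1.59 to 16.4 ± 6.97 FPKM (SD, n = 5; -0.66, limma adjusted p = 0.0434). Cdk1 kept its call in 4 of the 15 fits that left out 1 library, with the lowest limma adjusted p, 0.000269, without aged replicate 5. Among the fits without a young or an aged control, that was the only one in which Cdk1 was called. The helicase gene Mcm5 averaged 114 ± 7.12 in young and 81.8 ± 22.6 in aged controls without passing the test (-0.52, limma adjusted p = 0.284), and Mki67, below the filter, stood at 0.15 to 0.54 and 0.13 to 0.27. The summed level of the multipotent progenitor markers Cd34, Cd48 and Flt3 ranged over 52.5 to 68.4 FPKM for young and 20.9 to 33.5 for aged controls, with labelled knockouts at 21.5 to 49.2. The part of proliferation genes and of these markers in the repair gene differences was not tested.

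**Figure D3:**
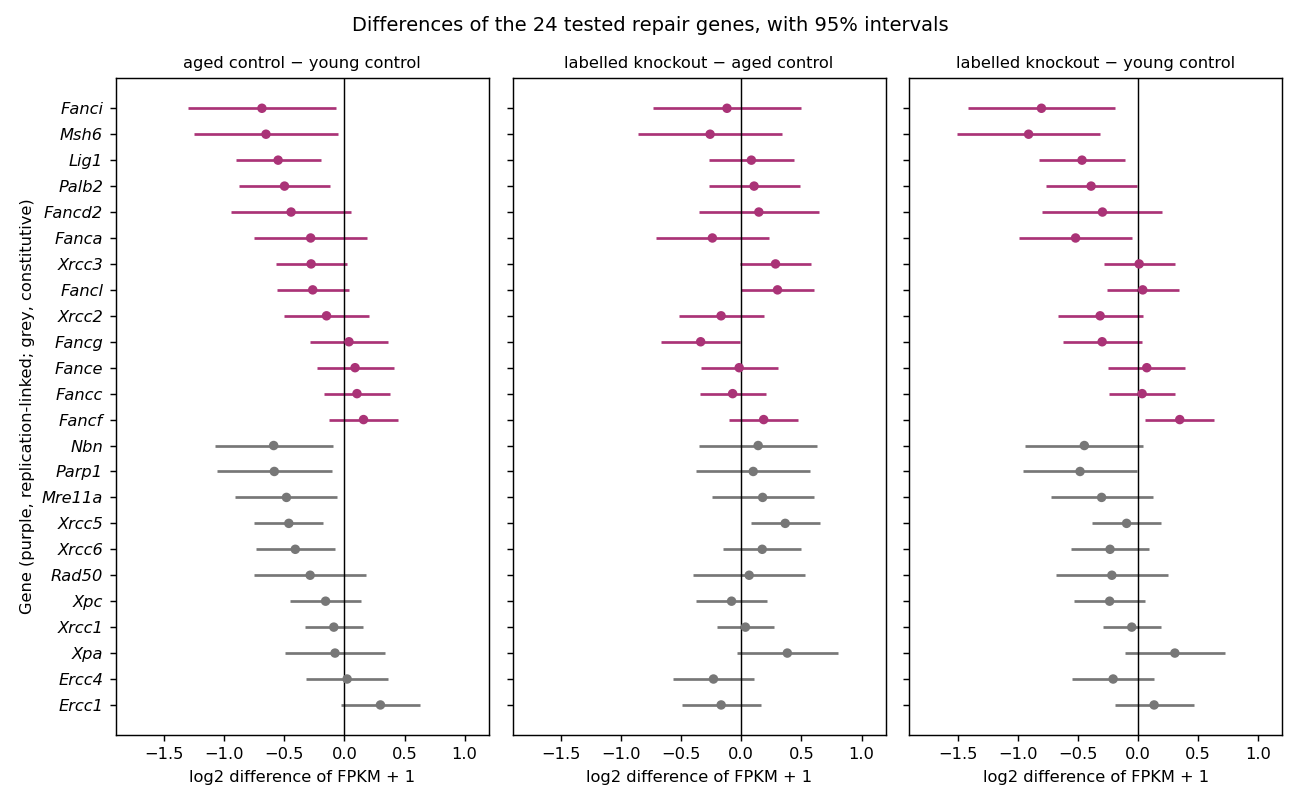
Difference of mean log2(FPKM + 1) between groups (points) with 95% intervals (bars) for the 24 tested members; purple, replication-linked, and grey, constitutive. In the aged against young panel 18 points lie left of 0 and 9 intervals exclude it, led by Fanci at -0.68 and Msh6 at -0.65, but no gene passed adjustment over 11345 genes.

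Partner genes, listed by pathway with earlier results of these data known, covered more of both kinds of repair. Of 48 replication-linked partners, 41 were tested, 4 fell in aged controls and 0 rose, against 1.23% and 3.18% of all tested genes. Tipin, a fork protection factor, fell from 49.6 ± 7.43 to 26.8 ± 15.4 FPKM (-0.99, limma adjusted p = 0.0258). Chek1, the kinase downstream of ATR, fell from 2.36 ± 0.594 to 0.968 ± 0.650 (-0.81, limma adjusted p = 0.0199). Rad51ap1, a recombination factor, fell from 4.62 ± 0.918 to 2.35 ± 1.38 (-0.82, limma adjusted p = 0.0456; SD, n = 5). Each of these 3 was highest among aged controls in replicate 5: 53.0 for Tipin, 2.11 for Chek1 and 4.55 for Rad51ap1. These calls were near the threshold: leaving out 1 library kept Chek1 in 10, Tipin in 8 and Rad51ap1 in 5 of 15 fits, and the smallest p came without aged replicate 5 in each case. Fits without a labelled knockout, a group not compared here, are among the 15 and alter only the pooled spread. Chek1 and Tipin lost their calls only in fits without a young or an aged control. Over the 41 genes 35 were lower, with a median of -0.388. Of 36 constitutive partners, 35 were tested, 0 fell and 1 rose, Polm, an end joining polymerase, from 1.68 ± 0.258 to 3.19 ± 0.902 (0.62, limma adjusted p = 0.0489). That call was kept in 4 of 15 such fits and lost with voom (adjusted p = 0.064). Among the fits without a young or an aged control, the Polm call was kept only without aged replicate 5. Grouped by the public descriptions, Tipin, Chek1, Rad51ap1, Polm and Cdk1 each had the opposite sign and none was called. Over the constitutive partners, grouped by title, the median was -0.103, and 22 of 35 were lower.

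The libraries labelled knockout were next compared with aged controls. Thbs1 RNA itself averaged 10.4 ± 7.84 FPKM in the former and 2.90 ± 3.84 in the latter (SD, n = 5; log2 difference 1.73, limma adjusted p = 0.302). An RNA level does not show whether the protein was lost, and the allele is not described. The comparison is therefore between labels and cannot be read as an effect of losing Thbs1. No member was called (limma, 0 of 24, against 1.55% of all tested genes; without a filter 0 of 36, background 0.686%; voom 0). At an unadjusted p under 0.05, Fancg was lower (1 of 24, background 8.31%), and Fancl and Xrcc5 were higher (2 of 24, background 4.64%). Lower were 10 of the 24, against 54.6% of all tested genes. The medians were -0.017 for replication-linked and 0.1 for constitutive members, against -0.028 over all tested genes. Without both labelled knockouts 2 and 5, the replication-linked median was 0.236 and the constitutive median 0.088.

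Xrcc5 was the member nearest to the threshold here, with labelled knockouts at 15.79 to 20.85 FPKM and aged controls at 11.34 to 16.42, ranges that overlapped only through 1 labelled knockout. Their means were 18.3 ± 2.08 and 14.0 ± 2.18 (SD, n = 5; 0.37, SE 0.14, limma adjusted p = 0.235). Fancl (ENSMUSG00000004018, chromosome 11, 26386135 to 26471876) lay at 5.95, 7.49, 6.71, 7.78 and 5.79 FPKM in young controls, 3.98, 5.55, 5.82, 5.78 and 6.23 in aged controls, and 7.23, 6.15, 6.76, 6.17 and 8.48 in labelled knockouts. Aged replicate 5 alone reached the labelled knockout range (0.30, SE 0.14, limma adjusted p = 0.384). Fancg (ENSMUSG00000028453, chromosome 4, 43002343 to 43010506), a core subunit that binds FANCA, lay at 13.98, 20.46, 13.84, 14.50 and 15.94 in young controls, 15.36, 16.47, 19.36, 13.55 and 15.90 in aged controls, and 15.26, 12.46, 12.86, 14.41 and 8.52 in labelled knockouts. The ranges overlapped, and labelled knockout 5 was the lowest of all 15 (-0.34, SE 0.16, limma adjusted p = 0.369). Leaving out 1 library gave -0.41 to -0.21, the smallest without that library.

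Xpa (ENSMUSG00000028329, chromosome 4, 46155347 to 46196311), which verifies lesions in nucleotide excision repair, had the largest of these differences. It lay at 7.29, 6.43, 9.29, 7.86 and 7.05 FPKM in young controls, 6.52, 7.94, 6.29, 6.69 and 8.17 in aged controls, and 6.61, 11.60, 7.40, 7.91 and 17.18 in labelled knockouts. Labelled knockouts 2 and 5 stood above all other libraries and the other 3 lay within the aged range (0.38, SE 0.20, limma adjusted p = 0.429), and the difference was 0.19 without labelled knockout 5. These 2 libraries also had the highest share of reads from 8 rRNA genes, 2.97% and 1.16%, against 0.27% to 0.68% in the other 13. The part of that difference in the Xpa values was not tested. Rad51c was the only member whose groups did not overlap here: labelled knockouts lay at 0.36 to 0.49 FPKM (31 to 48 reads) and aged controls at 0.51 to 0.97, against 1.08% of all 20696 genes lower without overlap. Of the partners and of the proliferation genes, 0 were called in this comparison (limma; smallest adjusted p = 0.359, 0.424 and 0.49 for replication-linked partners, constitutive partners and proliferation genes; voom 0 in each list). At an unadjusted p under 0.05, 2, 0 and 0 of them were higher and none lower. Their medians were 0.005, -0.075 and -0.17.

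Set against young controls, the libraries labelled knockout differ in age as well as in label. This comparison shares its libraries with both others, so its values stand beside theirs and are no separate evidence. No member was called (limma, 0 of 24, against 1.63% of all tested genes; without a filter 0 of 36, background 0.686%; voom 0). At an unadjusted p under 0.05, 6 were lower (background 12.0%) and 1 was higher (background 9.17%). The 6 were Msh6, Fanci, Lig1, Fanca, Palb2 and Parp1, of which only Parp1 is constitutive, and the higher one was Fancf, an adaptor of the core complex (14.6 ± 1.81 against 11.3 ± 1.54 FPKM, SD, n = 5; limma adjusted p = 0.173). Lower were 17 of 24, against 57.3% of all tested genes: 8 of 13 replication-linked and 9 of 11 constitutive members. The medians were -0.299 for replication-linked and -0.218 for constitutive members, against -0.059 over all tested genes. Without both labelled knockouts 2 and 5, the replication-linked median was -0.116 and the constitutive median -0.077.

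Msh6 had the largest difference, with means of 35.7 ± 6.85 FPKM in young controls and 20.6 ± 10.9 in labelled knockouts (SD, n = 5; -0.91, SE 0.28, limma adjusted p = 0.107). It was called without labelled knockout 3 (-1.08, limma adjusted p = 0.0401) or 4 (-1.12, 0.031), which were 2 of the 15 fits without 1 library. Over these fits the difference ran from -1.12 to -0.68 and the limma adjusted p reached 0.261. Fanci followed at -0.80 (SE 0.29, limma adjusted p = 0.146) and was called without labelled knockout 4 (limma adjusted p = 0.0459), 1 of 15 such fits, which gave -1.005 to -0.558 and an adjusted p of up to 0.317. Fanca (-0.52), Parp1 (-0.48), Lig1 (-0.47) and Nbn (-0.45) had limma adjusted p-values of 0.2, 0.231, 0.145 and 0.272. The Fanca difference was -0.33 without labelled knockout 5. Lig1 and Brca1 were lower in every labelled knockout than in every young control, 2 of 36 members against 1.47% of all 20696 genes. For Xrcc5 the labelled knockouts overlapped the young controls and the interval of the log2 difference ran from -0.38 to 0.19.

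Pcna, the sliding clamp of replication, was the one partner called here (1 of 41 replication-linked, against 0.617% of all tested genes that fell). It measured 82.06, 84.56, 95.37, 101.42 and 82.93 FPKM in young controls, 48.90, 52.64, 54.15, 62.56 and 92.07 in aged controls, and 37.49, 43.43, 53.70, 52.82 and 60.16 in labelled knockouts. Every labelled knockout lay below every young control, and aged replicate 5 lay among the young controls. Its log2 level fell by 0.85 (SE 0.16; limma adjusted p = 0.0107), and Pcna kept its call in 15 of 15 fits without 1 library. Those without an aged control, a group not compared here, alter only the pooled spread. Of replication-linked partners 39 of 41 were lower (median -0.401), of constitutive partners 25 of 35 (median -0.147). Proliferation genes were lower in 21 of 21 (median -0.761), and 2 fell: Rrm2, a subunit of ribonucleotide reductase (-0.94, limma adjusted p = 0.0404), and Top2a, the topoisomerase that untangles chromosomes (-0.97, limma adjusted p = 0.0451), both chosen after their values were seen and called in 6 and 4 of the 15 fits without 1 library. Among the fits without a young control or a labelled knockout, Rrm2 kept its call only without labelled knockout 3 or 4. Top2a kept its call there only without young control 4 or labelled knockout 3 or 4. The part of proliferation genes in the repair values was not tested here either.

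Libraries of 1 group also differed among themselves. The mean log2 level of the 13 replication-linked members ran from 3.101 to 3.197 among young controls and from 2.742 to 2.854 among aged controls 1 to 4, with aged control 5 at 3.195. In labelled knockouts 1 to 5 it was 3.035, 2.714, 3.014, 3.131 and 2.493. The corresponding mean of 21 proliferation genes ran from 4.82 to 4.97 among young controls and from 4.023 to 4.238 among aged controls 1 to 4, with aged control 5 at 5.044 and values of 4.363, 4.01, 4.454, 4.559 and 3.674 in labelled knockouts. On both means labelled knockouts 2 and 5 were the lowest libraries, and aged control 5 lay within or above the young range. Labelled knockouts 2 and 5 also had the highest rRNA shares of reads, 2.97% and 1.16%. Their shares of reads from protein-coding genes, 93.61% and 96.11%, were the lowest. The part of read composition in these means was not tested. The constitutive mean spread over 3.482 to 3.823 for young controls, 3.287 to 3.624 for aged controls and 3.421 to 3.66 for labelled knockouts, and young control 2 was within the aged range.

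**Figure D4:**
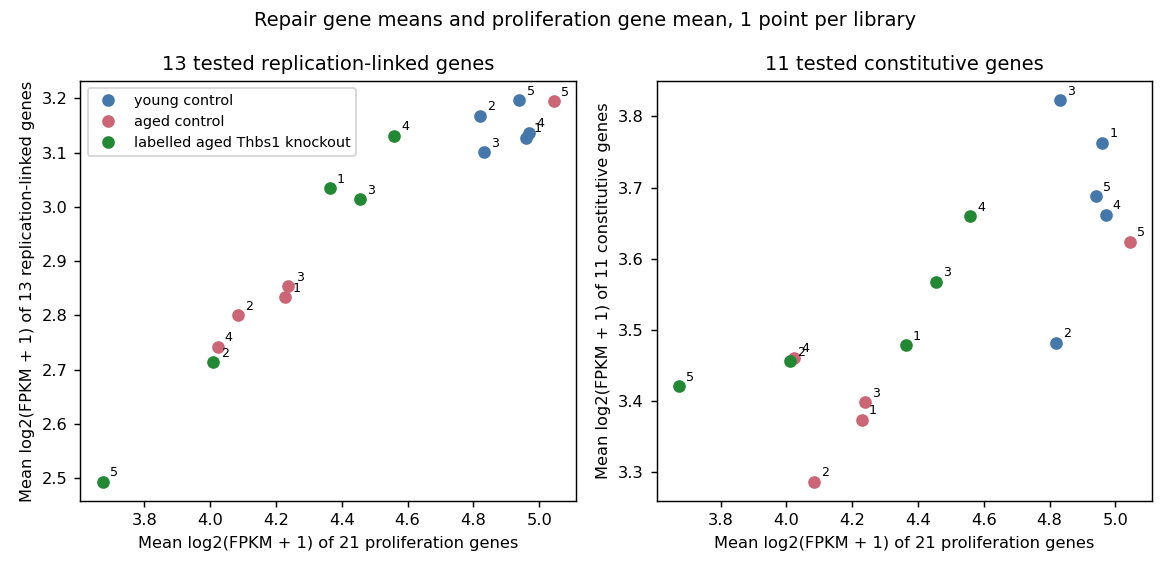
Mean log2(FPKM + 1) of 13 replication-linked (left) and 11 constitutive members (right) against that of 21 proliferation genes, 1 numbered point per library. On the left, labelled knockout 5 is lowest on both axes (2.493 and 3.674) and aged control 5 (3.195 and 5.044) lies beside the young controls.

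Aged control 5 was the highest aged control for 17 of the 24 tested members (10 of 13 replication-linked, 7 of 11 constitutive), against 27.0% of all tested genes. Labelled knockout 5 was the lowest of its group for 14 of 24 (8 of 13 and 6 of 11), against 27.7%. By the sex in the library names, 16 of 24 members were lower in aged than in young controls among males and 19 of 24 among females. An interaction of age and sex called 0 members and 0 of all tested genes (limma, smallest adjusted p of a member 0.554, 1 member at an unadjusted p under 0.05). Males carry the low replicate numbers in every group, and replicate 3 is male among aged controls and female in both other groups, so sex and replicate number overlap in part.

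**Figure D5:**
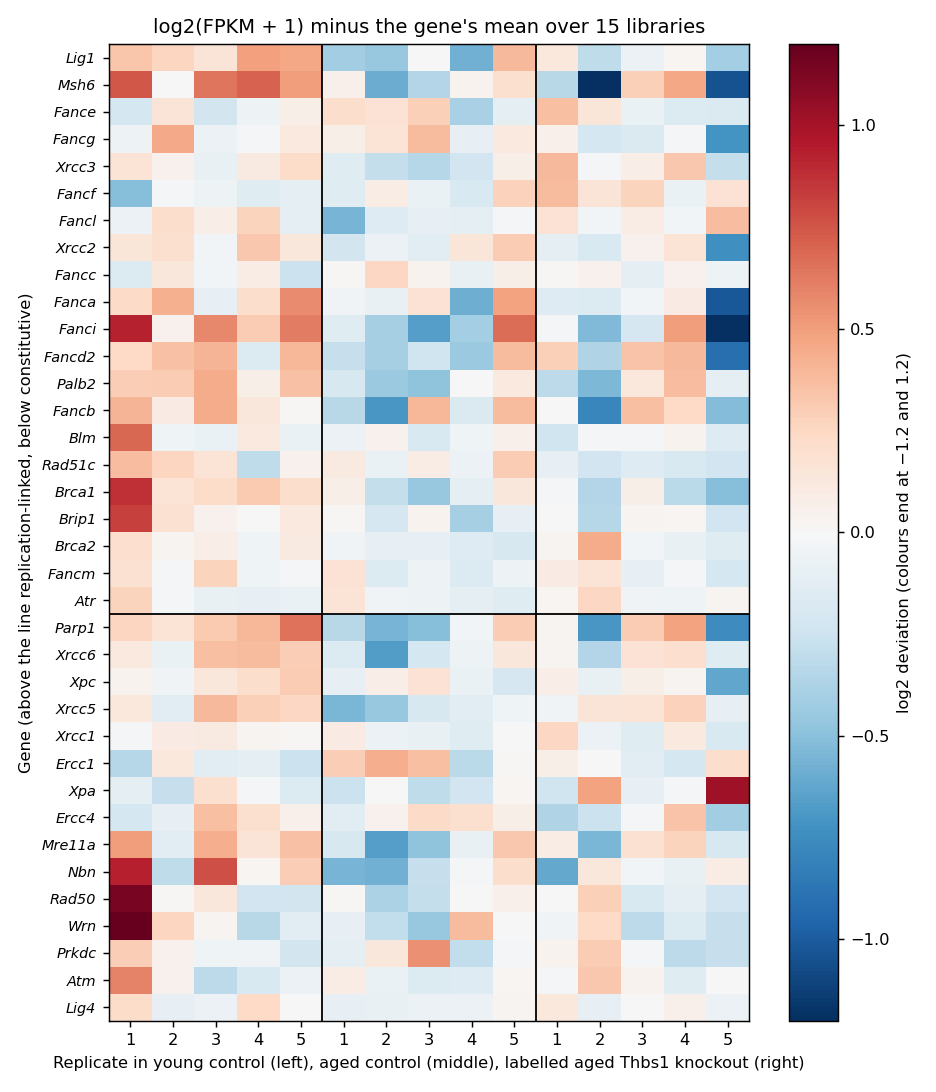
Deviation of log2(FPKM + 1) from each gene's mean over 15 libraries (colour, blue lower and red higher, ends at -1.2 and 1.2) for 36 genes (rows) and 15 libraries (columns, by group and replicate). Aged control 5 is red among blue aged columns in rows such as Lig1, Fanci and Fancd2, labelled knockout 5 is the bluest column for replication-linked genes, and young control 1 is red for low genes such as Wrn, Brca1 and Rad50.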

How the data were processed

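HSCs were sorted into TRIzol-LS and libraries were made from 2 ng of RNA with the SMART-Seq v4 kit, per the labels' protocols. FastQC 0.11.5, STAR, edgeR and the build GRCm38 (mm10) are named in the submitters' processing notes, without order or settings, and how reads were counted, strand included, is not stated there. Overlapping genes may therefore share reads. The authors deposited FPKM with 2 decimals for 20696 genes and 15 libraries, all used. From these, log2(FPKM + 1) was computed, and the 11345 genes with a mean of at least 1 FPKM were fitted with limma 3.58.1 (R 4.3.3; intensity trend, all 15 libraries, no covariate). Tests were two-sided, with Benjamini-Hochberg adjustment over all tested genes and calls under 0.05. The fit was also run on simulated data with independent normal noise for each gene and library. That run cannot show how the fit behaves where a library deviates over many genes at once.

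Depth was recovered from FPKM steps and GENCODE M21 exonic lengths: 97.6% to 98.2% of values in held-out genes up to 500 bases were whole reads within 0.1. Count tests were not the main analysis. Promoter sequences are RefSeq's (GRCm38.p6).

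Members, classes, partner lists and marker lists were chosen with earlier results of these data known. Values in every library are given for members called in any comparison, the 2 largest differences per class and comparison, and Fanca, Fancd2, Brca1, Brca2, Atm, Prkdc, Xrcc5, Xrcc6 and Parp1. Some single genes are not reported here. Of partners, the other called genes are named, and of proliferation genes Mki67, Mcm5 and Cdk1. Alternatives were a pseudocount of 0.1, no filter, quantile normalization, sex as a covariate, a replicate block, only the 2 groups compared, leaving out libraries, each sex alone, grouping by the public descriptions, and voom.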

Additional observations from a re-analysis of the deposited data

Results flagged for a closer look

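In each group of 5, the highest and the lowest library of each member were compared with the nearest other library by Dixon's ratio. Of 108 such groups, 14 had a library beyond the critical value of 0.71. About 1 in 20 would pass it for independent, normally distributed values. The ratio was taken on FPKM, not on a log scale, and the 108 groups share the same 15 libraries, so that share does not apply here. No share over all genes was computed, and the count is not a result about repair genes.

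Young control 1 accounts for 7 of the 14. It was the highest young control for Rad50 (4.99 FPKM), Wrn (3.08), Brca1 (1.84), Blm (1.58), Brip1 (1.47) and Atr (0.41), and the lowest for Fancf (8.64). Aged control 5 was the highest aged control for Fanci (3.30 FPKM), Fancd2 (2.24) and Lig4 (0.10). Aged control 1 was the highest for Fancm (0.37 FPKM). Labelled knockout 2 was the highest labelled knockout for Brca2 (0.82 FPKM) and Atr (0.39), and labelled knockout 5 the lowest for Xpc (13.04 FPKM). What sets these libraries apart was not tested.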

How the results depend on the processing

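The 12 members under 1 FPKM were read from 0 to 434 reads per library, and no difference in them passed the test at this depth when the filter on low values was dropped. Between aged and young controls, the 0 members called became 1 with quantile normalization (Lig1), 1 with sex as a covariate (Xrcc5), 3 with only the 2 groups compared (Msh6, Parp1 and Xrcc5) and 4 without both labelled knockouts 2 and 5 (Lig1, Msh6, Parp1 and Xrcc5), which alters only the pooled spread. Leaving out 1 library gave 0 to 2 members. Of all tested genes, 501 were called, and 1011 with only the 2 groups, 1030 without both labelled knockouts 2 and 5, 1093 in males, 27 in females, and 311 to 943 without 1 library. Quantile normalization and sex as a covariate each called more than 501. In both of these settings the share of members called was below that of all tested genes. With only the 2 groups, and without both labelled knockouts 2 and 5, the share of members was above that of all tested genes. No test compared these shares. The class medians ran from -0.34 to -0.24 (replication-linked) and from -0.381 to -0.178 (constitutive) without 1 library.

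For labelled knockouts against aged controls, 0 members were called without any 1 library. Of all tested genes 176 were called, and 77 with only the 2 groups, 10 in females and 95 to 229 without 1 library. The replication-linked median was 0.236 without both labelled knockouts 2 and 5 and -0.109 to 0.112 without 1 library, and the constitutive median 0.027 to 0.232. Against young controls, males alone gave 1 member (Msh6) and leaving out 1 library 0 to 2. Of all tested genes 185 were called, and 429 with sex as a covariate, 875 in males, 11 in females and 98 to 676 without 1 library. In males, the share of members called was below that of all tested genes. The replication-linked median was -0.116 without both labelled knockouts 2 and 5 and -0.397 to -0.171 without 1 library, and the constitutive median -0.272 to -0.138.

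Grouping columns by the public descriptions turned most directions. It called 0 of all tested genes for aged against young controls, with class medians of 0.107 and 0.244 and log2 differences of 0.24 for Lig1, 0.45 for Xrcc5, 0.068 for Msh6, 0.34 for Parp1, 0.23 for Fanci, 0.28 for Nbn, 0.18 for Fancd2, 0.11 for Palb2, 0.34 for Xrcc6, 0.29 for Mre11a, 0.37 for Rad51ap1, 0.55 for Chek1, 0.66 for Tipin, -0.30 for Polm and 0.27 for Cdk1. For labelled knockouts it called 0 genes against aged controls (Fancl -0.013, Xrcc5 -0.18) and 15 against young controls (class medians -0.001 and 0.19, Msh6 0.014, Parp1 0.26, Nbn 0.19, Pcna 0.004). Which pairing is right was not tested.

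Replicate numbers only name libraries: same-numbered libraries of different groups correlated at -0.46 to 0.53, 6 of 15 pairs over 0.1, and 2 of 15 libraries correlated best with their own number in both other groups. With a replicate block, 0 members were called in each comparison, and 499, 152 and 158 of all tested genes in place of 501, 176 and 185.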
